A study of Mus musculus with 4 samples.

Results

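The nuclear respiratory chain genes are the genes of the cell nucleus that encode the proteins of mitochondrial complexes I to V. They were taken as every gene in the feature lists whose symbol starts with Ndufa, Ndufb, Ndufc, Ndufs, Ndufv, Uqcr, Cox4, Cox5, Cox6, Cox7, Cox8 or Atp5, or is Sdha, Sdhb, Sdhc or Sdhd, and that had 10 or more unique molecular identifiers (UMIs, each marking 1 captured transcript). Of 32285 listed genes, 94 matched these symbols and 92 had enough UMIs. Cox7b2 and Cox8c had 0 UMIs. The 92 members were 37 complex I subunits, 8 complex I assembly factors (Ndufaf genes), 4 complex II, 8 complex III, 17 complex IV and 17 complex V genes, and Ndufa4l2, a paralog of Ndufa4. Ndufa4 itself is counted with complex IV, where its product is now placed. The 13 protein genes of mitochondrial DNA, written mt-, are given beside them.

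Hearts of C57BL6J mice were compared after treatment with an agonist antibody against CD40 or with a rat IgG isotype antibody, with no further allele or agent named. Each group is a single CITE-seq library made from 4 pooled hearts; dose, time and age are not given in the sources used here. The sample titles name a sort for CD45 without DAPI (live leukocytes), but a gate on DRAQ5 without DAPI is named in the description of the series, and the files do not settle which was used. The RNA counts of both libraries were used; the antibody tag counts were not used here. With 1 library per group there is no replicate and no test, so the effects of the treatment and of the separate preparations cannot be told apart. Each interval below is an exact 95% interval that covers counting error only.

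The respiratory chain passes electrons from NADH (complex I) and succinate (complex II) through complexes III and IV to oxygen, and the proton gradient built on the way drives ATP synthesis by complex V. All complexes except II combine subunits made in the cytosol from nuclear genes with a small core made inside the mitochondrion from mt- genes. In macrophages, oxidative metabolism through this chain is known to be changed by inflammatory activation, alongside glycolysis.

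The anti-CD40 library held 53736318 UMIs in 7087 barcodes and the isotype library 26847799 UMIs in 4908 barcodes, and 13 barcode sequences occurred in both. Cells with at least 200 genes and under 10% mt- UMIs were kept, 4278 of the anti-CD40 library (60.4%) and 2558 of the isotype library (52.1%). Cell types were gated with lists of 8 markers, of which a cell needed at least 3. The gate gave 2230 anti-CD40 and 678 isotype macrophages, 67 anti-CD40 and 90 isotype classical monocytes, 182 anti-CD40 and 125 isotype neutrophils, and 77 anti-CD40 and 117 isotype NK cells. These are the types with at least 50 cells in each library, for which ratios are given. B cells numbered 6 in the anti-CD40 library and 384 in the isotype library, and T cells 67 in the anti-CD40 library and 28 in the isotype library. Small numbers of endothelial cells (38 anti-CD40, 37 isotype) and fibroblasts (9 anti-CD40, 10 isotype) also passed the gates, although the sample titles name a CD45 sort. The gate left 1517 anti-CD40 and 997 isotype cells without a type.

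Nuclear subunit transcripts were a larger share of the RNA of anti-CD40 macrophages than of isotype macrophages in each of the 5 complexes. The 78 subunits outside the tissue isoforms summed to 18627 CPM (counts per 1e+06 gene UMIs), or 1.86% of UMIs, in anti-CD40 macrophages and to 14321 CPM, or 1.43%, in isotype macrophages. That is a ratio of 1.30 (1.29 to 1.31), with anti-CD40 over isotype throughout; numbers in parentheses after a pair of values are this ratio and its interval. Cell by cell, the median share was 1.69% in anti-CD40 macrophages, with quartiles of 1.15% and 2.07%, and 1.27% in isotype macrophages, with quartiles of 0.895% and 1.59%. The interquartile ranges of the 2 libraries therefore overlapped. The mt- genes summed to 44017 CPM in anti-CD40 and 43161 CPM in isotype macrophages, a ratio of 1.02 (1.01 to 1.02). The libraries thus stood apart more in nuclear than in mt- transcripts, with 2.36 mt- UMIs per nuclear subunit UMI in anti-CD40 macrophages against 3.01 in isotype macrophages.

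Macrophages of the anti-CD40 library also had more UMIs per cell, with a median of 8904.5 against 5309 in the isotype library, and whether this came from sequencing depth or from RNA content was not tested. The nuclear chain share was higher in cells with more UMIs in both libraries. Split by UMIs per cell, the ratio of nuclear subunits was 1.12 at 1000 to 2500 UMIs, 1.01 at 2500 to 5000, 1.16 at 5000 to 10000, 1.22 at 10000 to 20000, and 1.18 above that. It was above 1 in all 5 bins, and its counting interval held 1 at 2500 to 5000 UMIs (0.978 to 1.04). In that bin complexes I, III and IV stood at 1.02, 1.09 and 1.01, and complexes II and V at 0.86 and 0.98. The interval of each held 1. In the other bins the ratio of each complex was above 1. Macrophages under 1000 UMIs were in none of these bins. The bin with the most UMIs held 17 isotype cells. With all bins weighted alike in both libraries, the ratio was 1.15 for nuclear subunits and 1.09 for mt- genes, in place of 1.30 and 1.02. The ratio of mt- to nuclear UMIs, 0.784 when all macrophages were pooled, was then 0.949, and in cells of 5000 to 10000 UMIs it was 1.05. By bin, from the fewest UMIs to the most, the mt- genes had ratios of 1.15, 1.04, 1.22, 1.12 and 0.93. The mt- ratio was thus above the nuclear ratio in the 3 bins under 10000 UMIs and below it in the 2 bins over that, so the pooled direction did not hold in most bins.

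**Figure D1:**
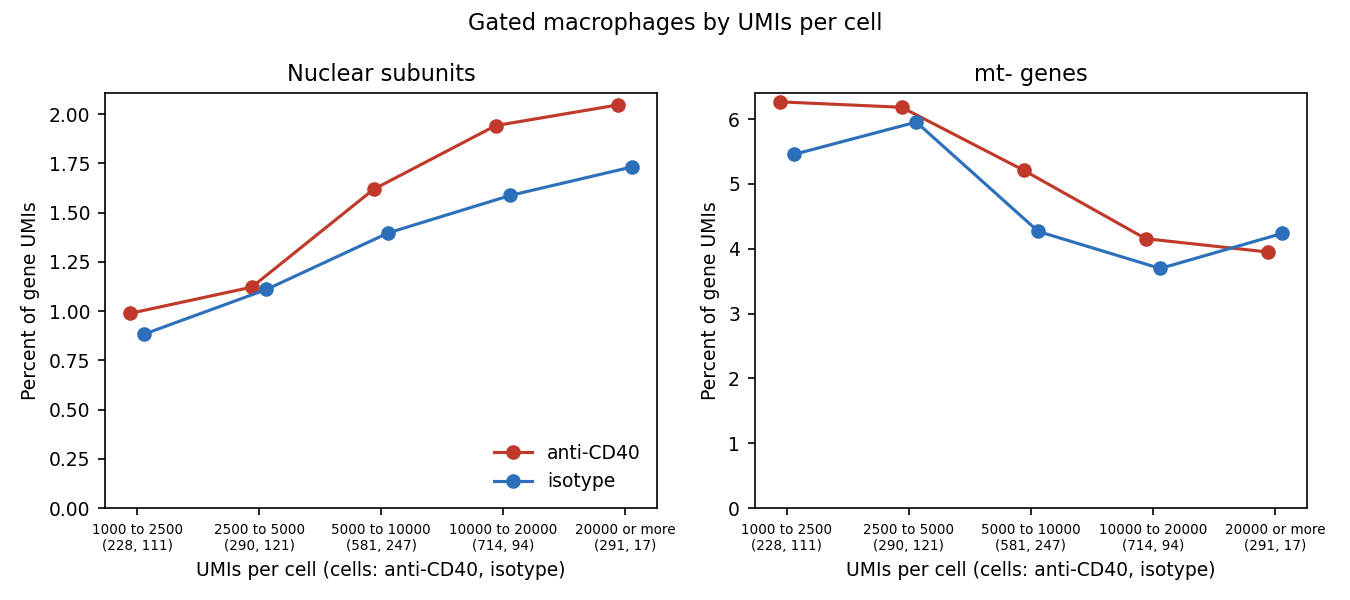
Nuclear subunit transcripts (left) and mt- transcripts (right) as percent of gene UMIs in gated macrophages, by UMIs per cell; red, anti-CD40; blue, isotype; cell numbers in parentheses on the axis. The nuclear share is higher in bins with more UMIs per cell in both libraries, and anti-CD40 lies above isotype by 1.01-fold to 1.22-fold; the mt- share is lower in anti-CD40 than in isotype cells in the last bin alone.

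Member by member, 91 of the 92 genes had at least 30 UMIs in macrophages over both libraries; Ndufa4l2 did not. Of these, 21 were at least 1.5-fold higher in anti-CD40 macrophages, where 12.4% of all 11711 genes with 30 UMIs were, and 4 were at least 1.5-fold lower, where 25.7% of all genes were. The other 66 lay within 1.5-fold. Most members had many more UMIs than the minimum of 30, and genes near it can pass 1.5-fold by counting error. The shares of all genes were not matched to the members by abundance. In all, 78 of the 91 had a ratio above 1, as did 4314 of all 11711 genes. The median log2 ratio was 0.40 for the members and -0.20 for all genes. The members thus stood 0.60 above the median gene. TMM scaling, which sets the bulk of genes level, added 0.28 to every log2 ratio in macrophages, 0.12 in classical monocytes, 0.25 in neutrophils and 0.17 in NK cells; the ratios here are on the plain CPM scale. Among cells of 5000 to 10000 UMIs, 10 members were higher (13% of all genes) and 2 lower (18.8%) of 88. Among cells of 10000 to 20000 UMIs, 15 members were higher (13% of all genes) and 3 lower (24.5%) of 88. In the first of these bins the share of members that were higher was near that of all genes. What stayed apart from the other genes there was the median, 0.22 for the members and -0.08 for all genes.

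**Figure D2:**
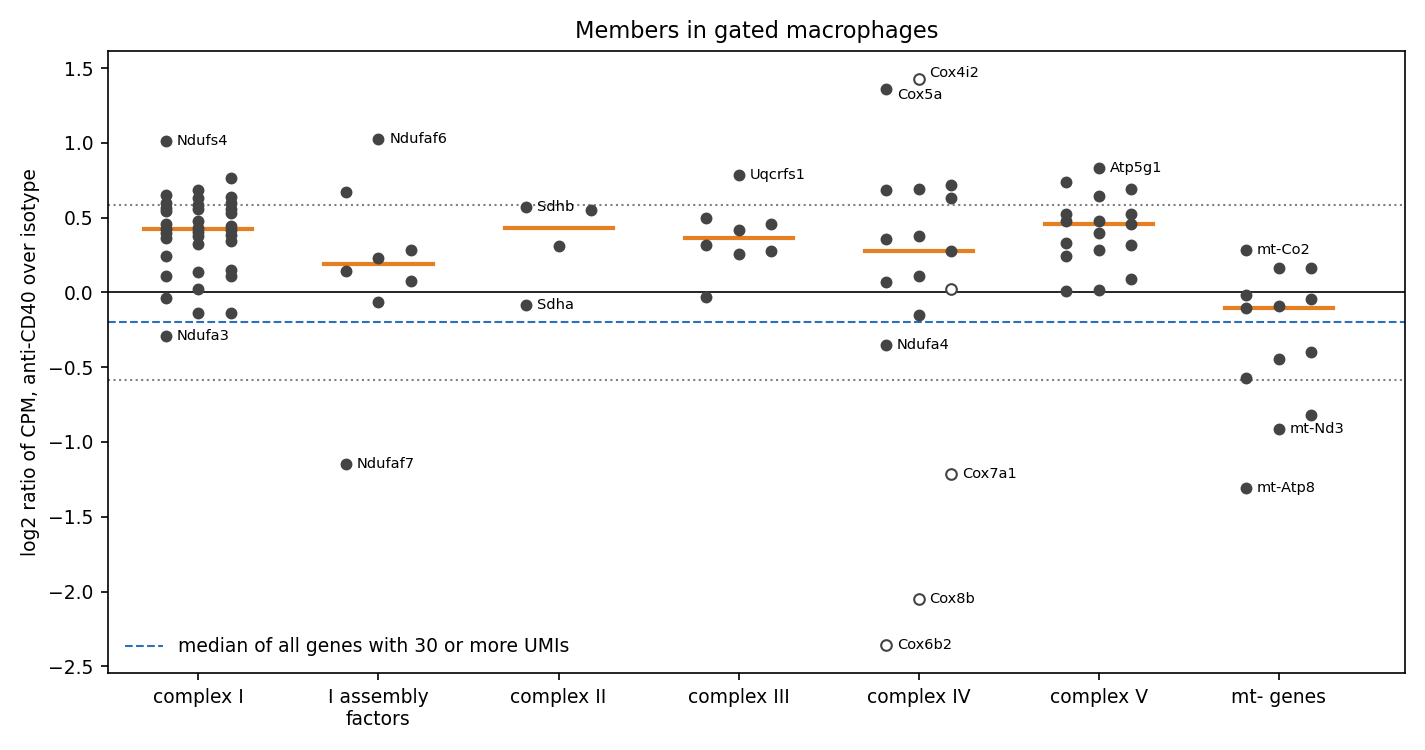
log2 ratio of CPM (anti-CD40 over isotype) of each member and mt- gene with 30 or more UMIs in gated macrophages, by complex; open circles are tissue isoforms, orange bars group medians, dotted lines 1.5-fold either way and the dashed line the median of all genes (-0.20). With macrophages of all depths pooled, complex V lies wholly above 0, complex IV spreads most, and the mt- genes centre at -0.10.

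Complex I, the NADH dehydrogenase, summed to 5602 CPM in anti-CD40 and 4406 CPM in isotype macrophages, a ratio of 1.27 (1.25 to 1.29). Of its 37 subunit genes 33 had a ratio above 1. At least 1.5-fold higher were 8, against 12.4% of all genes, and none was at least 1.5-fold lower, against 25.7%. Ndufs4, an accessory subunit of the arm that binds NADH, had 95.5 CPM (2293 UMIs) in anti-CD40 and 47.3 CPM (197 UMIs) in isotype macrophages, a ratio of 2.02 (1.75 to 2.35). Ndufs3, a core subunit of the matrix arm, had 102 CPM in anti-CD40 and 59.98 CPM in isotype macrophages, a ratio of 1.70 (1.49 to 1.95). For Ndufa11, an accessory subunit of the membrane arm, the values were 148 CPM in anti-CD40 and 92.1 CPM in isotype macrophages, a ratio of 1.61 (1.45 to 1.79). These 3 lead complex I. Ndufb5, Ndufa12, Ndufa8, Ndufv1 and Ndufab1 were the others past 1.5-fold, with ratios of 1.52 to 1.57. Ndufv1 carries the NADH-binding site and Ndufab1 is the mitochondrial acyl carrier protein. Not all of these genes were past 1.5-fold at matched depth. In cells of 5000 to 10000 UMIs the intervals of Ndufb5 (1.14), Ndufv1 (1.17) and Ndufab1 (1.20) held 1, and Ndufs3 stood at 1.41. Ndufs4, Ndufa8, Ndufa12 and Ndufa11 were past 1.5-fold there, at 1.53 to 1.84. In cells of 10000 to 20000 UMIs Ndufs4, Ndufs3, Ndufa11 and Ndufb5 were, at 1.61 to 1.69, and the others stood at 1.25 to 1.49.

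At the other end of complex I stood 4 genes below 1. Ndufa3, a small accessory subunit of the membrane arm, had 164 CPM in anti-CD40 and 200.1 CPM in isotype macrophages, a ratio of 0.82 (0.76 to 0.88). Ndufs1, the largest core subunit, which carries iron-sulphur clusters, had 24.6 CPM in anti-CD40 and 27.1 CPM in isotype macrophages, and its interval held 1 (ratio 0.91, 0.74 to 1.12). Ndufa6 had a ratio of 0.91 and Ndufa2 of 0.97. Subunits of the same complex thus ran from 0.82 to 2.02. Ndufs4 and Ndufa3 kept their sides at matched depth: Ndufs4 was 1.84-fold and 1.69-fold higher in cells of 5000 to 10000 and of 10000 to 20000 UMIs, and the ratio of Ndufa3 there was 0.76 and 0.74.

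The promoter windows of the 3 complex I genes with the highest ratios are shown because each holds 1 of the motifs for which respiratory chain promoters are known. Each window is 300 bases around the gene's start, from RefSeq, build GRCm38.p6, printed 5′ to 3′ on the gene's strand. Capitals mark the YY1 motif AAGATGGCG in Ndufs4 (chr13:114388045-114388344, minus strand), the ETS motif CCGGAAG on either strand in Ndufs3 (chr2:90904672-90904971, minus strand), and the NRF1 motif (GCGCA, 1 base of any kind, GCGC) in Ndufa11 (chr17:56717512-56717811, plus strand).
Ndufs4: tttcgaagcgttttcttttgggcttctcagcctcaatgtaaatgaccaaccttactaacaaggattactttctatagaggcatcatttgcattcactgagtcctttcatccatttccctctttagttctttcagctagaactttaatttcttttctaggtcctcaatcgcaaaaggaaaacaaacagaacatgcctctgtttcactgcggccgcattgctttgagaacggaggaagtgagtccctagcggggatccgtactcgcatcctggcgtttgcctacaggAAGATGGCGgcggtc
Ndufs3: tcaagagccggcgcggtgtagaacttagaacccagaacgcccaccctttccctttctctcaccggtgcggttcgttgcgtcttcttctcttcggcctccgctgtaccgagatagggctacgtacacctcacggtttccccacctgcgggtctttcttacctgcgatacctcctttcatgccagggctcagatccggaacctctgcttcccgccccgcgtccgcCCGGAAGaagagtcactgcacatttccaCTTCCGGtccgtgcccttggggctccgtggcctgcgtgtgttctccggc
Ndufa11: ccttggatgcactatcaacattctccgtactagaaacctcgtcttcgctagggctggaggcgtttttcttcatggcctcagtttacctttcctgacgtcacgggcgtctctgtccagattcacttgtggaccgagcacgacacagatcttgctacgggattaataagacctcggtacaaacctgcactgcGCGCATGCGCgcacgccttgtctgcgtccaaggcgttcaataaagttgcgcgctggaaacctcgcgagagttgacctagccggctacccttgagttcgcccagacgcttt

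Of the 86 members outside the tissue isoforms and Ndufa4l2, 71 had such a window, 76 windows in all. The NRF1 motif, searched like the others on both strands, was in 26.3% of these windows and in 4.60% of the 32851 windows of all 27025 genes in the table. The ETS motif was in 25% of members' windows against 8.86% of all windows, and the YY1 motif in 10.5% of members' windows against 1.40% of all windows. Members' windows were also richer in CG pairs, with a median of 20 against 7 in all genes. Among windows with at least 10 CG pairs the shares of members' windows against those of all genes were 27.0% against 10.3% for NRF1, 25.7% against 17.3% for ETS, and 10.8% against 3.06% for YY1. NRF1, the ETS factor GABP and YY1 are known to bind promoters of this kind. The motif TCAAGGTCA of the receptor ESRRA was in 2.63% of members' windows and 0.423% of all windows, the interferon-stimulated element (GAAA, 2 bases of any kind, GAAA) in 2.63% of members' and 3.44% of all windows, and the STAT motif TTCCNGGAA, which can overlap an ETS match, in 1.32% of members' and 1.15% of all windows. The Ndufs3 window above also holds a match of the interferon-stimulated element, as its reverse complement, which is not in capitals. Genes with and without an NRF1 match had similar ratios in macrophages, with median log2 ratios of 0.40 (19 genes) and 0.45 (52 genes). For the ETS motif the medians were 0.33 with a match (19 genes) and 0.45 without (52 genes). For YY1 they were 0.42 with a match (8 genes) and 0.42 without (63 genes). A match of letters is a description of the window and says nothing on binding in these cells.

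The complex I assembly factors, which help build the enzyme and are not part of it, summed to 180.4 CPM in anti-CD40 and 165 CPM in isotype macrophages, a ratio of 1.09 (1.01 to 1.18). As a group they were nearer to 1 than the subunits, and they diverged among themselves. Ndufaf6 had 223 UMIs (9.28 CPM) in anti-CD40 and 19 UMIs (4.56 CPM) in isotype macrophages, a ratio of 2.04 (1.27 to 3.45). Ndufaf3, which acts early in assembly, had a ratio of 1.59 (1.27 to 2.02). Ndufaf7, a methyltransferase, had 12.1 CPM (291 UMIs) in anti-CD40 and 26.9 CPM (112 UMIs) in isotype macrophages, a ratio of 0.45 (0.36 to 0.57). It was the only member outside the tissue isoforms that was at least 1.5-fold lower in macrophages. The ratio of Ndufaf7 was 0.38 and 0.50 in the middle depth bins. Ndufaf6 and Ndufaf3 stood at 1.69 and 1.23 in the first of these bins, where both intervals held 1. In the second they stood at 3.62 and 1.70. Intervals of Ndufaf1 (1.22, 0.84 to 1.83) and Ndufaf2 (0.96, 0.76 to 1.22) held 1, and Ndufaf8, Ndufaf4 and Ndufaf5 had ratios of 1.18, 1.11 and 1.05.

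Complex II, succinate dehydrogenase, is also an enzyme of the citric acid cycle and has no mt- subunit. Its 4 genes summed to 399 CPM in anti-CD40 and 307 CPM in isotype macrophages, a ratio of 1.30 (1.22 to 1.38). Sdhb, the iron-sulphur subunit, had 182 CPM in anti-CD40 and 122 CPM in isotype macrophages (1.49, 1.36 to 1.63). Sdhc and Sdhd, the membrane anchors, had 68.9 CPM in anti-CD40 and 47.0 CPM in isotype macrophages (1.47, 1.26 to 1.71) and 76.4 CPM in anti-CD40 and 61.7 CPM in isotype macrophages (1.24, 1.09 to 1.42). Sdha, the flavoprotein that oxidises succinate, had 71.6 CPM in anti-CD40 and 76.1 CPM in isotype macrophages (0.94, 0.83 to 1.06). The catalytic subunit thus did not share the higher level of the other 3 genes, and none of the 4 passed 1.5-fold.

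Complex III, the cytochrome bc1 complex, summed to 1818 CPM in anti-CD40 and 1449 CPM in isotype macrophages (1.25, 1.22 to 1.29), and 7 of its 8 nuclear genes had a ratio above 1. Uqcrfs1, the Rieske iron-sulphur protein, had 113 CPM in anti-CD40 and 65.3 CPM in isotype macrophages, a ratio of 1.73 (1.52 to 1.96). It was the only one of the 8 past 1.5-fold, a share near the 12.4% of all genes that were higher. At matched depth Uqcrfs1 stood at 1.34 and 1.64. Uqcrq had 296 CPM in anti-CD40 and 209.7 CPM in isotype macrophages (1.41, 1.32 to 1.52), and Uqcr10 had 236 CPM in anti-CD40 and 172 CPM in isotype macrophages (1.37, 1.27 to 1.48). Lowest were Uqcrh, the hinge protein beside cytochrome c1, at 1.19 (1.13 to 1.26), and Uqcr11 at 0.98 (0.91 to 1.05). Uqcrc1, Uqcrc2 and Uqcrb lay between 1.21 and 1.33.

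Complex IV, cytochrome c oxidase, spread most. Its 12 common nuclear genes summed to 5036 CPM in anti-CD40 and 3795 CPM in isotype macrophages, a ratio of 1.33 (1.31 to 1.35). Cox5a, a subunit on the matrix side, had 458 CPM (10994 UMIs) in anti-CD40 and 179 CPM (744 UMIs) in isotype macrophages, a ratio of 2.56 (2.38 to 2.77). Cox5b, another matrix-side subunit, had 517 CPM in anti-CD40 and 315 CPM in isotype macrophages (1.64, 1.55 to 1.74). Both were higher, and Cox5a had the highest ratio of all members with over 100 UMIs. At matched depth Cox5a was 1.94-fold higher in cells of 5000 to 10000 UMIs and 2.30-fold higher in those of 10000 to 20000. Cox7b, Cox7a2 and Cox8a were the others past 1.5-fold, with ratios of 1.55 to 1.62. In the same 2 bins Cox8a stood at 1.28 and 1.53, and Cox7a2 at 1.34 and 1.47. Cox5b stood there at 1.45 and 1.55, and Cox7b at 1.54 in both. Cox4i1, Cox6b1 and Cox6c lay between 1.21 and 1.30, Cox6a1 and Cox7a2l at 1.08 and 1.05, and Cox7c at 0.90.

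Ndufa4, first named as a complex I subunit and now placed in complex IV, had 168 CPM (4037 UMIs) in anti-CD40 and 214 CPM (894 UMIs) in isotype macrophages, a ratio of 0.78 (0.73 to 0.84). It was lower in the middle depth bins as well, at 0.84 and 0.75. It was the lowest ratio of any common subunit. AA467197, looked up after these values were seen, is a gene outside the rule; it is the mouse counterpart of the human gene known as C15orf48 or NMES1, whose product can take the place of NDUFA4 in complex IV during inflammation. AA467197 had 128 CPM (3070 UMIs) in anti-CD40 and 2.40 CPM (10 UMIs) in isotype macrophages, a ratio of 53.3 (28.9 to 111). The ratios of the pair thus lay on opposite sides of 1 in macrophages.

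**Figure D3:**
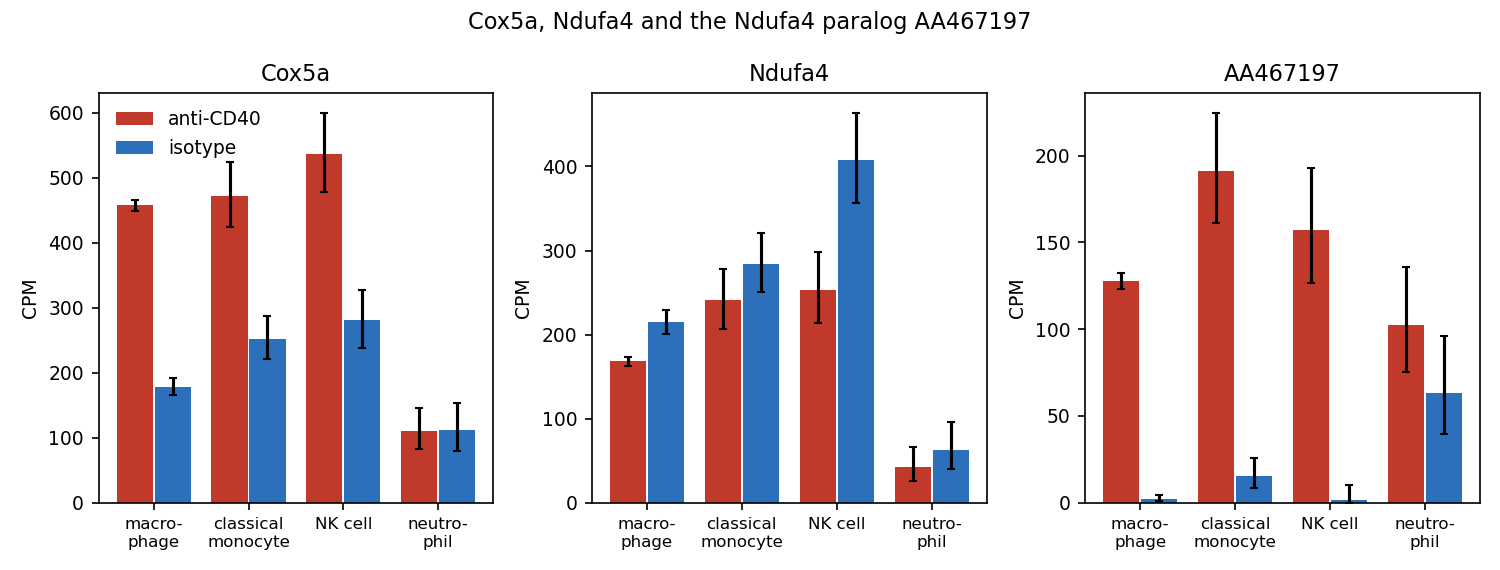
CPM of Cox5a, Ndufa4 and the Ndufa4 paralog AA467197 in the 4 types with at least 50 cells in each library; red, anti-CD40; blue, isotype; error bars are exact Poisson 95% intervals (counting error only). In macrophages, classical monocytes and NK cells Cox5a and AA467197 are higher and Ndufa4 lower in anti-CD40 cells. The intervals of the 2 libraries overlap for Ndufa4 in classical monocytes and for each gene in neutrophils.

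Outside macrophages the pair gave these values. Classical monocytes had 191 CPM of AA467197 in anti-CD40 and 15.4 CPM in isotype cells (12.4, 7.18 to 23.3) and 241 CPM of Ndufa4 in anti-CD40 and 284 CPM in isotype cells (0.85, 0.70 to 1.03). NK cells had 157 CPM of AA467197 (91 UMIs) in anti-CD40 and 1.79 CPM (1 UMI) in isotype cells (87.9, 15.4 to 3509). Of Ndufa4 they had 254 CPM in anti-CD40 and 407 CPM in isotype cells (0.62, 0.50 to 0.77). In neutrophils the intervals of both ratios held 1, at 1.62 (0.96 to 2.82) for AA467197 and 0.68 (0.35 to 1.30) for Ndufa4. Among types with fewer cells, AA467197 had 70 UMIs in 20 mature dendritic cells and 25 UMIs in 67 T cells of the anti-CD40 library, and 0 UMIs in 28 isotype T cells and 384 isotype B cells. In conventional dendritic cells the order was the other way, with 20.1 CPM (6 UMIs) in the anti-CD40 library and 43.4 CPM (34 UMIs) in the isotype library. Free RNA of macrophages can add UMIs to other types in a droplet library. Macrophage markers ran at 291 CPM in anti-CD40 NK cells and 410 CPM in anti-CD40 T cells, against 15593 CPM in anti-CD40 macrophages. How much of the AA467197 signal in NK cells and T cells came from free RNA was not tested.

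Complex V, the ATP synthase, summed to 5773 CPM in anti-CD40 and 4364 CPM in isotype macrophages, a ratio of 1.32 (1.30 to 1.34). All 17 of its nuclear genes had a ratio above 1, and 4 were at least 1.5-fold higher, against 12.4% of all genes. Atp5g1, 1 of the 3 genes for the subunit c ring that turns in the membrane, had 328 CPM in anti-CD40 and 185 CPM in isotype macrophages (1.78, 1.65 to 1.92). The other two, Atp5g3 and Atp5g2, had ratios of 1.56 and 1.32. Atp5b, the catalytic beta subunit, had 449 CPM in anti-CD40 and 269 CPM in isotype macrophages (1.67, 1.57 to 1.78), and its partner alpha, Atp5a1, had 291 CPM in anti-CD40 and 233 CPM in isotype macrophages (1.25, 1.17 to 1.34). Atp5o, the stalk subunit known as the oligomycin sensitivity conferring protein, had 221 CPM in anti-CD40 and 137 CPM in isotype macrophages (1.62, 1.48 to 1.77). Lowest were the small membrane subunits Atp5md, at 191 CPM in anti-CD40 and 188 CPM in isotype macrophages (1.01, 0.94 to 1.09), and Atp5k, at 220.2 CPM in anti-CD40 and 219 CPM in isotype macrophages (1.01, 0.94 to 1.08). The membrane subunits Atp5l and Atp5j2 had ratios of 1.26 and 1.22, and the stalk subunit Atp5e had 1.19, so the ratios did not fall into an order by part of the enzyme.

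Among the tissue isoforms, Cox6a2, Cox7a1 and Cox8b are known from heart and skeletal muscle, Cox6b2 from testis, and Cox4i2 from lung and vessel walls. Cox7a1 had 129 UMIs (5.37 CPM) in anti-CD40 and 52 UMIs (12.5 CPM) in isotype macrophages (0.43, 0.31 to 0.61). Cox8b had 39 UMIs (1.62 CPM) in anti-CD40 and 28 UMIs (6.72 CPM) in isotype macrophages (0.24, 0.14 to 0.41). Cox6a2 had 152 UMIs (6.33 CPM) in anti-CD40 and 26 UMIs (6.24 CPM) in isotype macrophages (1.01, 0.67 to 1.60). The muscle isoforms were thus seen at a few CPM, and Cox7a1 and Cox8b were lower in the anti-CD40 library. The 8 cardiomyocyte markers, Myh6 and Ttn among them, summed to 74.2 CPM in anti-CD40 and 149 CPM in isotype macrophages, and so were lower in the same direction. They ran at 135 CPM in the 251 anti-CD40 macrophages with a muscle isoform UMI and at 528 CPM in the 73 such isotype macrophages. In macrophages with none they ran at 62.4 CPM in anti-CD40 and 80.5 CPM in isotype macrophages. Classical monocytes and neutrophils held 0 UMIs of these 3 genes in either library. NK cells held Cox6a2 alone of the 3, with 3 UMIs (5.17 CPM) in anti-CD40 and 6 UMIs (10.7 CPM) in isotype cells. Their cardiomyocyte markers ran at 17.2 CPM in anti-CD40 and 7.14 CPM in isotype cells. Whether the UMIs of the muscle isoforms came from cardiomyocyte RNA carried in the droplets was not tested.

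Cox6b2 had 36 UMIs (1.499 CPM) in anti-CD40 and 32 UMIs (7.68 CPM) in isotype macrophages, a ratio of 0.20 (0.12 to 0.32). Conventional dendritic cells had 1 UMI of Cox6b2 in the anti-CD40 library and 14 in the isotype library, and classical monocytes had 2 in the anti-CD40 library and 13 in the isotype library. Cox4i2 had 31 UMIs in anti-CD40 and 2 UMIs in isotype macrophages, and the interval of its ratio (2.69, 0.68 to 23.2) held 1, so it counts among the 21 higher members by its ratio alone. Ndufa4l2, known as a gene induced by low oxygen, had 10 UMIs in anti-CD40 and 3 UMIs in isotype macrophages, too few to compare, and 5 UMIs in the few fibroblasts of each library.

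Among the mt- genes, macrophage ratios ran from 0.40 to 1.22, and 3 of 13 were at least 1.5-fold lower, a share near the 25.7% of all genes. By complex, the mt- genes of complex I summed to 8638 CPM in anti-CD40 and 10157 CPM in isotype macrophages (0.85, 0.84 to 0.86), mt-Cytb of complex III to 4531 CPM in anti-CD40 and 4668 CPM in isotype macrophages (0.97, 0.96 to 0.99), those of complex IV to 23475 CPM in anti-CD40 and 21687 CPM in isotype macrophages (1.08, 1.07 to 1.09), and those of complex V to 7373 CPM in anti-CD40 and 6649 CPM in isotype macrophages (1.11, 1.09 to 1.12). Complexes I and III thus stood below IV and V, as they did among the nuclear partners, which lay closer together, within 1.25 to 1.33. mt-Co2 had the highest ratio, 1.22 (1.20 to 1.23). The lowest was mt-Atp8, with 50.3 CPM (1209 UMIs) in anti-CD40 and 125 CPM (520 UMIs) in isotype macrophages (0.40, 0.36 to 0.45). mt-Nd3 had 455 CPM in anti-CD40 and 857 CPM in isotype macrophages (0.53, 0.51 to 0.55), and mt-Nd4l had 184 CPM in anti-CD40 and 324 CPM in isotype macrophages (0.57, 0.53 to 0.60). All 3 are short genes. mt-Atp8 overlaps mt-Atp6, and mt-Nd4l overlaps mt-Nd4, on shared transcripts, so reads in the overlap cannot be given to 1 gene with certainty. At matched depth mt-Atp8 stood at 0.50 and 0.49 and mt-Nd3 at 0.61 and 0.58. mt-Cytb stood at 1.12 in both of these bins, above 1. Also below 1 when pooled, mt-Nd1, mt-Co1 and mt-Nd4 stood at 1.09, 1.15 and 1.18 in cells of 5000 to 10000 UMIs. In cells of 10000 to 20000 UMIs they stood at 0.99, 1.01 and 1.10. mt-Nd2, mt-Nd4l, mt-Nd5 and mt-Nd6 were below 1 in both bins. The pooled side of 1 thus did not hold at matched depth for every mt- gene.

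Since the limit of 10% mt- UMIs acts on these same genes, the nuclear share was also read without that limit, as percent of nuclear gene UMIs in bins of mt- share. At 2 to 5% mt- UMIs it was 2.06% in anti-CD40 and 1.58% in isotype barcodes that passed the macrophage gate. At 10 to 20% it was 1.05% in anti-CD40 and 0.789% in isotype barcodes. Anti-CD40 was higher in each of the 6 bins, and in both libraries barcodes with 10 to 40% mt- UMIs held a smaller nuclear share than those with 2 to 5%.

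**Figure D4:**
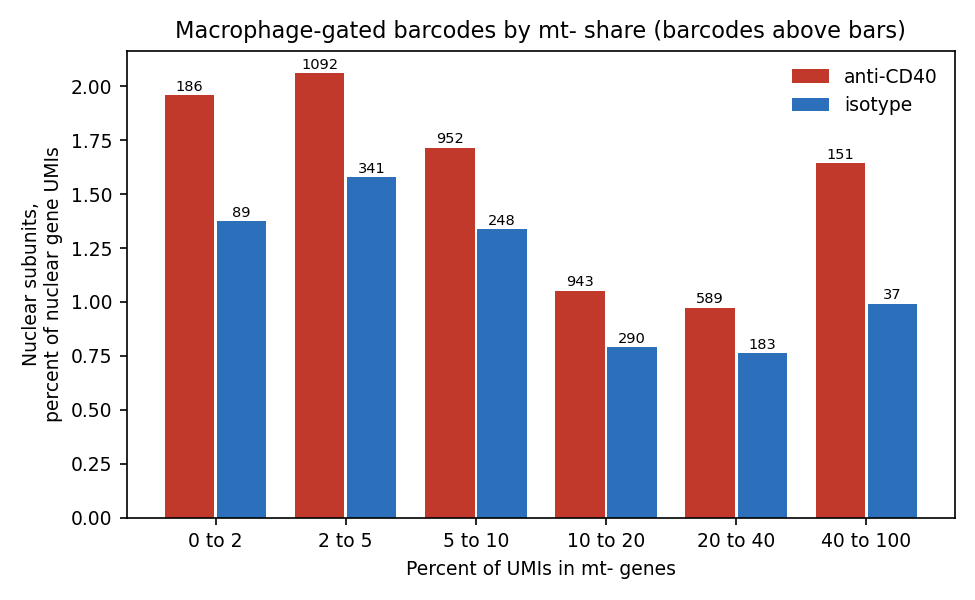
Nuclear subunit UMIs as percent of nuclear gene UMIs in barcodes that passed the macrophage gate, by percent of UMIs in mt- genes; red, anti-CD40; blue, isotype; the number of barcodes stands above each bar. The anti-CD40 bar is the taller in all 6 bins, from 1.96% (anti-CD40) against 1.37% (isotype) in the first to 1.64% (anti-CD40) against 0.992% (isotype) in the last.

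Within macrophages, cells without a UMI of the resident markers Timd4, Lyve1 or Folr2 had 18983 CPM of nuclear subunits in the anti-CD40 library (1294 cells) and 13342 CPM in the isotype library (331 cells), a ratio of 1.42 (1.40 to 1.44). Cells with such a UMI had 18256 CPM in the anti-CD40 library (936 cells) and 14981 CPM in the isotype library (347 cells), a ratio of 1.22 (1.21 to 1.23). Cells with 2 or more cycling markers, such as Mki67, were 20% of anti-CD40 and 3.83% of isotype macrophages. They had the most nuclear chain RNA, 19541 CPM in the anti-CD40 library (446 cells) and 18035 CPM in the isotype library (26 cells), a ratio of 1.08 (1.06 to 1.11). Without them the ratio was 1.31. Marker UMIs are more likely to be seen in cells with more UMIs, so both splits also sort cells by depth. The part of depth in these ratios was not tested. B cell markers ran at 31.8 CPM in anti-CD40 and 196 CPM in isotype macrophages, classical monocyte markers at 917 CPM in anti-CD40 and 1278 CPM in isotype macrophages, and neutrophil markers at 243 CPM in anti-CD40 and 72.5 CPM in isotype macrophages; their part in the ratios was not tested.

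Other genes of the pathway were read from lists outside the rule. Beside their counts stand the shares of all genes in macrophages, 12.4% at least 1.5-fold higher and 25.7% at least 1.5-fold lower. Of 13 citric acid cycle genes with 30 UMIs, 1 was at least 1.5-fold higher in anti-CD40 macrophages and 0 lower, with a median log2 ratio of 0.21; Suclg1 was highest (1.91), and Idh3g (0.87) and Suclg2 (0.80) were lowest. Of 33 further assembly factors, 3 were higher and 2 lower (median 0.03). In neither of these lists was the share of higher genes above that of all genes. Coa5 and Sco1, both for complex IV, stood at 2.39 and 2.05, while Ttc19, for complex III, and Timmdc1, for complex I, stood at 0.65 and 0.59. Of 14 electron carriers, transporters and inhibitors, 4 were higher and 0 lower (median 0.40). Cycs, cytochrome c, which carries electrons between complexes III and IV, had 265 CPM in anti-CD40 and 113 CPM in isotype macrophages, a ratio of 2.34 (2.13 to 2.58). Vdac2, a channel of the outer membrane, stood at 2.06, and Etfdh and Higd2a were lowest at 0.85 and 0.82.

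Genes that maintain and express mitochondrial DNA, with their regulators, did not share the members' median: of 20, 1 was higher, against 12.4% of all genes, and 4 were lower, against 25.7%. Their median log2 ratio was -0.02, against -0.20 over all genes, and the share of lower ones was near that of all genes. Ppargc1b, a coactivator of respiratory genes, had 27.9 CPM in anti-CD40 and 9.36 CPM in isotype macrophages (2.98, 2.16 to 4.23), and Mterf4 stood at 1.49. Polg and Polg2, the subunits of the mitochondrial DNA polymerase, had the lowest ratios at 0.57 and 0.42. For comparison, 11 of 16 glycolysis genes were higher and 0 lower (median 1.20), with Pgk1 (3.35) and Hk3 (3.26) highest and Eno1 (1.29) and Hk2 (0.70) lowest. Of 79 cytosolic ribosomal protein genes 5 were higher and 5 lower (median 0.17), with Rps2 (1.66) and Rps20 (1.59) highest and Rps27 (0.57) and Rps28 (0.52) lowest. The members' median lay above that of the ribosomal genes and below that of glycolysis.

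Across cell types, the nuclear chain took its smallest share of RNA in neutrophils, cells known for few mitochondria and for glycolysis, at 0.748% of UMIs in the anti-CD40 library and 0.927% in the isotype library. In classical monocytes it was 2.24% in the anti-CD40 library and 1.87% in the isotype library, and in NK cells 2.20% in the anti-CD40 library and 1.84% in the isotype library. With fewer cells, T cells had 2.21% in the anti-CD40 library and 1.55% in the isotype library, conventional dendritic cells 2.32% (anti-CD40) and 1.79% (isotype), endothelial cells 1.48% (anti-CD40) and 1.54% (isotype), and B cells 1.42% (6 anti-CD40 cells) and 1.30% (384 isotype cells). These are shares of pooled UMIs. The median share per cell went the other way in B cells (1.20% anti-CD40, 1.23% isotype) and endothelial cells (1.49% anti-CD40, 1.40% isotype). It also did so in nonclassical monocytes, at 1.36% (anti-CD40) and 1.38% (isotype), against pooled shares of 1.61% and 1.39%. T cells had 1.46 mt- UMIs per nuclear subunit UMI in the anti-CD40 library and 3.43 in the isotype library. Of anti-CD40 T cells 35.8%, and of isotype T cells 3.57%, carried 2 or more cycling markers.

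**Figure D5:**
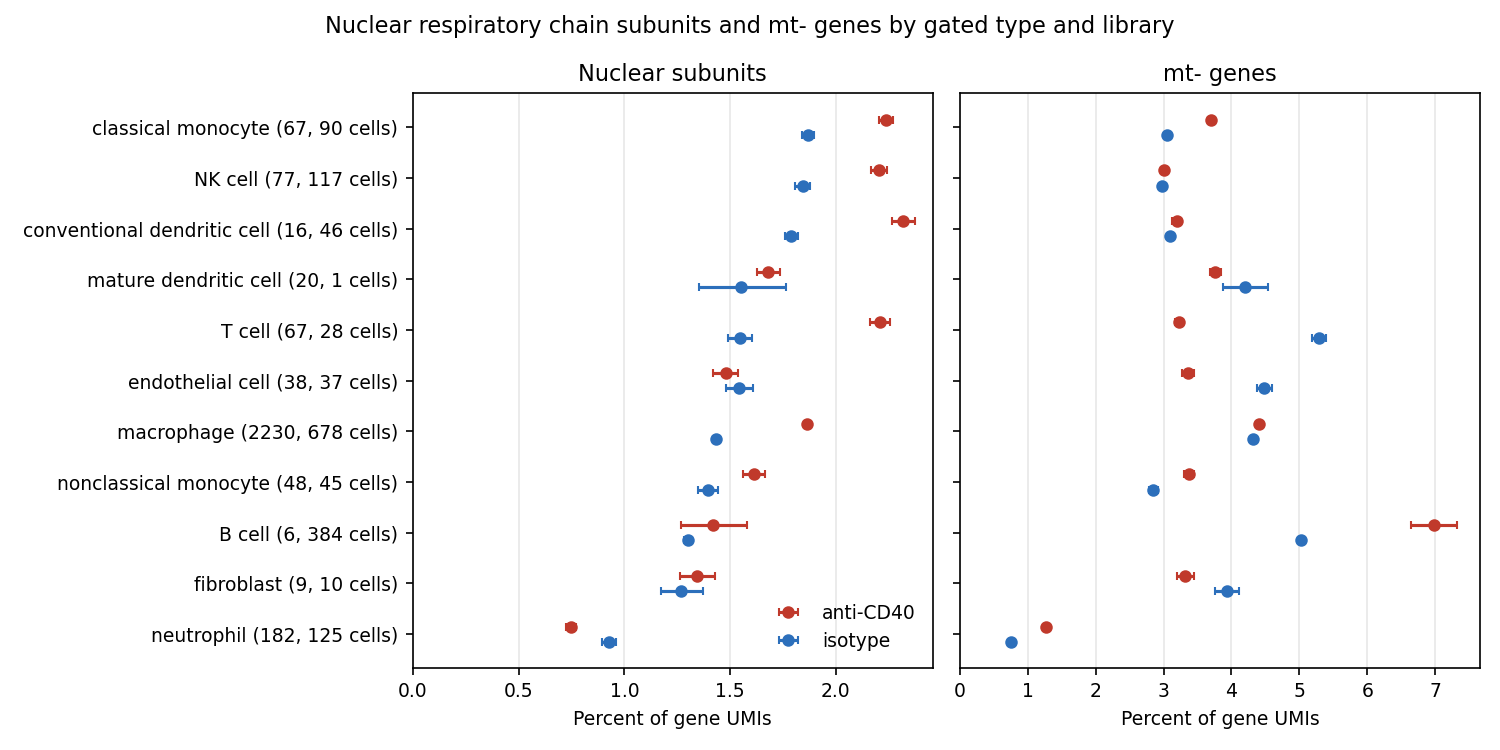
Nuclear subunits (left) and mt- genes (right) as percent of gene UMIs in each gated type, ordered by the isotype level of nuclear subunits; red, anti-CD40; blue, isotype; bars are exact Poisson 95% intervals (counting error only) and cell numbers stand in the labels. Neutrophils lie lowest in both panels, and the anti-CD40 point lies to the right for nuclear subunits in every type except endothelial cells and neutrophils. Points are of pooled UMIs, and the median cell went the other way in nonclassical monocytes, B cells and endothelial cells.

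Classical monocytes had 22376 CPM of nuclear subunits in the anti-CD40 library and 18670 CPM in the isotype library, a ratio of 1.20 (1.17 to 1.22). Here the mt- genes had the same ratio, 1.21 (1.19 to 1.23), led by mt-Cytb with 4090 CPM in anti-CD40 and 2534 CPM in isotype monocytes (1.61, 1.53 to 1.70). Of 82 members with 30 UMIs, 18 were at least 1.5-fold higher, against 12.8% of all genes, and 1 was lower, against 22.4%. Atp5g1 had the highest ratio, with 390 CPM in anti-CD40 and 193 CPM in isotype monocytes (2.02, 1.67 to 2.45). Ndufaf7 was the lower one, with 23.5 CPM in anti-CD40 and 50.4 CPM in isotype monocytes (0.47, 0.25 to 0.82). Macrophage markers ran at 2230 CPM in anti-CD40 and 838 CPM in isotype monocytes, and neutrophil markers at 579 CPM in anti-CD40 and 100.9 CPM in isotype monocytes. Cells with 2 or more cycling markers were 17.9% of anti-CD40 and 2.22% of isotype monocytes. The part of these in the ratios was not tested.

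NK cells had 22029 CPM of nuclear subunits in the anti-CD40 library and 18437 CPM in the isotype library, a ratio of 1.19 (1.16 to 1.23), while their mt- genes stood at 1.01 (0.99 to 1.03). Of 82 members 18 were at least 1.5-fold higher, against 12.6% of all genes, and 4 were lower, against 23.5%. Cox5a led, with 536 CPM in anti-CD40 and 280.3 CPM in isotype NK cells (1.91, 1.57 to 2.33). The 4 lower ones were Ndufa3, with 197 CPM in anti-CD40 and 334 CPM in isotype NK cells (0.59, 0.46 to 0.75), Ndufa6, Sdha and Ndufa4. Cycling cells were 20.8% of anti-CD40 NK cells and 0% of isotype NK cells. mt-Atp8 and mt-Nd3 were the mt- genes past 1.5-fold lower, at 0.42 and 0.51. The members at least 1.5-fold higher in macrophages, classical monocytes and NK cells alike were 6 of the 82 with 30 UMIs in each type, against 2.36% of all genes: Atp5b, Atp5g1, Atp5g3 and Atp5o of complex V, and Cox5a and Cox5b of complex IV. All 3 comparisons come from the same pair of libraries and are not independent.

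Neutrophils stood apart from these types. Their nuclear subunits summed to 7478 CPM in the anti-CD40 library and 9272 CPM in the isotype library, a ratio of 0.81 (0.77 to 0.85). Complex I stood at 0.72 (0.66 to 0.78), complex IV at 0.85 (0.77 to 0.93) and complex V at 0.80 (0.73 to 0.88), while the intervals of complex II (0.97) and complex III (1.01) held 1. Of 58 members with 30 UMIs, 7 were at least 1.5-fold higher, against 16.4% of all genes, and 19 lower, against 33.2%. Both shares were near those of all genes, and the members' median, -0.35, lay close to that of all genes, -0.28. Uqcrb had the highest ratio with 34 UMIs in anti-CD40 and 7 UMIs in isotype neutrophils (3.61, 1.57 to 9.64), and Ndufa12 the lowest with 12 UMIs in anti-CD40 and 22 UMIs in isotype neutrophils (0.41, 0.18 to 0.85). The median UMI count per cell was 2402.5 in anti-CD40 and 3032 in isotype neutrophils, the other way round from macrophages and from NK cells (6009 in anti-CD40, 4645 in isotype cells). UMIs per cell thus moved the same way as the nuclear ratio in these 3 types, and their part in it was not tested outside macrophages. In classical monocytes the medians were 10868 in anti-CD40 and 10335.5 in isotype cells. With the median ratio of all genes set to 1, the nuclear ratio of neutrophils was 0.977.

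The mt- genes of neutrophils went the other way, with 12655 CPM in the anti-CD40 library and 7507 CPM in the isotype library, a ratio of 1.69 (1.61 to 1.77). Macrophage markers ran at 903 CPM in anti-CD40 and 299 CPM in isotype neutrophils, and classical monocyte markers at 2057 CPM in anti-CD40 and 342 CPM in isotype neutrophils. The part of the monocyte markers was not tested. In neutrophils with no UMI of any macrophage marker, 15 anti-CD40 and 54 isotype cells, the mt- ratio was 0.64 (0.55 to 0.74), the opposite direction. The nuclear ratio there was 0.85 (0.75 to 0.96), the same direction as in all gated neutrophils.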

How the data were processed

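Both groups are libraries of sorted heart cells (10x Genomics 5′ chemistry), each from 4 pooled hearts; the titles name CD45 and the description of the series DRAQ5 as the gate. The values used are the deposited UMI counts of each gene in each barcode, whole numbers that were not normalized, made with Cell Ranger 6.0.1 per the file headers. Cell Ranger 3, Seurat 3 and the builds mm10 and GRCh38 stand, without roles, in the submitters' processing notes. Per the labels' protocols, hearts were perfused and enzymatically digested. The barcodes had been selected before deposit, by a setting not given in the sources used here. How reads shared with near-identical processed pseudogenes were counted is not given either, so levels of members with such copies are uncertain.

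Cells with at least 200 genes and under 10% mt- UMIs were kept. A cell took a type when at least 3 of its 8 markers had a UMI, more than of any other type, and no type outside its family had more than 2; this also left out mixed barcodes, and no doublet caller was run. UMIs were summed per type and library and divided by all gene UMIs of those cells to give CPM. Ratios carry exact conditional binomial 95% intervals, levels exact Poisson ones. A member was counted as higher or lower past 1.5-fold, among genes with at least 30 UMIs over both libraries, beside the same share of all genes. The calculation was tested on simulated data. TMM factors came from edgeR 4.0.16 (R 4.3.3), used for scaling only; all else ran in Python 3.11.15 with numpy 2.4.6, scipy 1.17.1 and pandas 2.3.3. Complex sums leave out the tissue isoforms. Named genes were the 3 highest and 2 lowest ratios per complex in macrophages, the highest and lowest in each other compared type, all tissue isoforms, all Sdh genes, the highest and lowest mt- genes, and the 2 highest and 2 lowest of each further list; Ndufa4, the other genes past 1.5-fold and AA467197 were added after their values were seen. The members, markers and lists were chosen with earlier results of these data known. Some genes that the naming rule picked are not reported here by name; they stay in the counts and sums.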

Additional observations from a re-analysis of the deposited data

Results flagged for a closer look

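Nuclear chain ratios of anti-CD40 over isotype lay on opposite sides of 1 in neutrophils and in other types, with counting intervals that did not hold 1 on either side. The difference between types was not tested, since each group is 1 library. For all nuclear subunits the ratio was 1.30 in macrophages, 1.20 in classical monocytes and 1.19 in NK cells, against 0.806 in neutrophils. The median UMI count per cell was higher in anti-CD40 than in isotype cells for macrophages (8904.5 against 5309), NK cells (6009 against 4645) and classical monocytes (10868 against 10335.5), and lower for neutrophils (2402.5 against 3032); its part in the difference between types was not tested. For complex I it was 1.27 in macrophages, 1.20 in classical monocytes and 1.13 in NK cells, against 0.718 in neutrophils. Complex IV stood at 1.33 in macrophages, 1.20 in classical monocytes and 1.21 in NK cells, against 0.847 in neutrophils. Complex V stood at 1.32 in macrophages, 1.22 in classical monocytes and 1.25 in NK cells, against 0.800 in neutrophils. The complex I assembly factors had a ratio of 1.09 in macrophages, against 0.568 in neutrophils. Relative to the median gene of each type, the members' median stood at 0.60 in macrophages, 0.48 in classical monocytes, 0.36 in NK cells and -0.07 in neutrophils on the log2 scale.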

How the results depend on the processing

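No paired analysis was possible because each group is 1 library. Nuclear subunits were higher in anti-CD40 macrophages under all 15 alternatives tried, at 1.15 to 1.58. Members at least 1.5-fold higher numbered 10 to 57. The lowest count was in cells of 5000 to 10000 UMIs, against 13% of all genes. The highest was under TMM factors, which raise the ratio of every gene. The ratio of nuclear subunits, of mt- genes and of mt- to nuclear UMIs in macrophages was 1.31, 1.02 and 0.775 under 5% mt- UMIs; 1.35, 0.879 and 0.649 with no mt- limit; 1.22, 1.00 and 0.824 in resident-marked cells; 1.31, 1.01 and 0.770 without cells with cardiomyocyte markers; and 1.28, 1.08 and 0.847 as the mean of the cells' own shares. The last 2 were 1.03 and 0.792 with at most 1 unrelated marker. TMM factors gave 1.58 for nuclear subunits and 1.24 for mt- genes, with 57 members higher. Setting the median gene to 1 gave 1.49 and 1.17, with 47 higher. Both scalings raise every ratio, so more of all genes then count as higher and fewer as lower by construction. The shares of all genes past 1.5-fold under these 2 scalings are not reported here. The counts of 57 and 47 therefore cannot be set against the count on the plain CPM scale.

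Alternatives chosen after seeing the data were depth, all kept cells and neutrophils without macrophage markers. Bins weighted alike gave 1.15, 1.09 and 0.949. Cells of 5000 to 10000 UMIs gave 1.16, 1.22 and 1.05, with 10 members higher (13% of all genes) and 2 lower (18.8%). Cells of 10000 to 20000 UMIs gave 1.22, 1.12 and 0.919. The other bins, not among the 15 alternatives, gave nuclear ratios of 1.12 at 1000 to 2500 UMIs, 1.01 at 2500 to 5000, where the interval held 1, and 1.18 above 20000. All kept cells gave 0.887 for mt- genes and 0.682 for mt- to nuclear UMIs. Members lower numbered 2 with a minimum of 100 UMIs and 2 with a prior of 10 CPM, settings whose share of all genes is not reported here.

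Neutrophil nuclear subunits, 0.806 in the report, stood at 0.707 with 4 own markers, 0.957 with TMM factors, 0.977 with the median gene at 1 and 0.851 without macrophage markers. Neutrophil mt- genes, 1.69 in the report, stood at 1.41 under 5% mt- UMIs, 2.75 with no mt- limit, 1.27 with 4 own markers, 2.00 with TMM factors, 2.04 with the median gene at 1, 1.56 without cardiomyocyte markers and 1.41 as the mean of cells' shares. They were reversed without macrophage markers, at 0.637, and the ratio of mt- to nuclear UMIs was then 0.749 in place of 2.09; the cause was not tested.

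Depth limits neutrophils most: 58 of 92 members had 30 UMIs there, against 91 in macrophages.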
